A study of Mus musculus with 6 samples.

Results

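The genes described here are 9 cytokine genes of the interleukin-6, interleukin-10 and interleukin-12 families: Il6, Il10, Il12a, Il12b, Il23a, Il27, Ebi3, Osm and Lif. They were taken by their gene symbols and are 9 of the 32285 genes counted. Their unique molecular identifiers (UMIs, 1 per captured mRNA molecule) were summed per library and per cell type in 6 single-cell RNA-seq libraries of mouse lung.

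Wild type mice (written C65BL6 in the series' text) and Nos1-/- mice, which lack neuronal nitric oxide synthase, received either 10 mg/kg lipopolysaccharide (LPS, the endotoxin of Gram-negative bacteria) or vehicle by intraperitoneal injection. Lungs were taken 4 h later, digested to single cells and enriched for CD45+ leukocytes with magnetic beads. There was 1 library of wild type vehicle, 1 of Nos1-/- vehicle, 2 of wild type LPS and 2 of Nos1-/- LPS. The labels state neither age, sex nor how many animals went into a library, so p-values measure only the spread between libraries, which may be technical. With 1 vehicle library per genotype, that spread was measured only between the LPS libraries of a genotype. P-values of LPS against vehicle, and of differences in the LPS response, thus hold no measured spread between vehicle libraries.

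The libraries held 8676 to 12362 cell barcodes and 55361477 to 115225284 UMIs, and 53033 of 64428 barcodes stayed in a named cell type. Any pair of libraries shared 19 to 34 barcodes. Nos1 itself gave 2 and 5 UMIs in the wild type and Nos1-/- vehicle libraries, 0 and 1 in the wild type LPS libraries and 4 and 4 in the Nos1-/- LPS libraries, which is too few to check the genotype labels. Ptprc, the gene of CD45, stood at 923.5 to 1036 CPM (counts per 1000000 UMIs) over all cells, yet 2195 endothelial and 658 stromal cells were also present. The libraries differed in sex marks. Cells with UMIs of Y-linked genes and none of Xist made up 43.5% of the wild type vehicle library, 0.0142% of the Nos1-/- vehicle library, 0.0424% and 0.00956% of the wild type LPS libraries, and 21.9% and 19.7% of the Nos1-/- LPS libraries. Cells with Xist, the RNA that silences 1 X chromosome in female cells, and no Y-linked UMI made up 0.0231%, 75.6%, 48.8% and 46.4%, and 30.9% and 31.8% of the same libraries. The wild type vehicle library thus carried male marks, the Nos1-/- vehicle and wild type LPS libraries carried female marks, and the Nos1-/- LPS libraries carried both. Comparisons are therefore given also over cells with Xist and no Y-linked UMI, called Xist-only cells below. That restriction was added after the data were seen, and it may not match sex fully. Cells with both marks made up 0.0231% of the wild type vehicle library and 3.59% and 3.35% of the Nos1-/- LPS libraries. Only 20.9% of wild type vehicle neutrophils had Y-linked UMIs and no Xist. Xist-only cells of the Nos1-/- LPS libraries may thus include male cells whose Y-linked UMIs were missed. Xist-only cells were 26.8% and 22.1% of wild type LPS neutrophils and 13.5% and 11.35% of Nos1-/- LPS neutrophils.

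These cytokines work as secreted ligands of type I and type II cytokine receptors that signal through JAK kinases and STAT transcription factors. Il6, Osm (oncostatin M) and Lif (leukaemia inhibitory factor) encode ligands whose receptors share the chain encoded by Il6st. Il10 encodes a dampening cytokine that signals through Il10ra, Il10rb and STAT3. The interleukin-12 family is made of paired chains: Il12a with Il12b forms interleukin-12, Il23a with Il12b interleukin-23, Il27 with Ebi3 interleukin-27, and Il12a with Ebi3 interleukin-35. In myeloid cells LPS is known to switch on several of these genes through Toll-like receptor 4 and NF-kB.

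All 9 genes were found in GENCODE M21 on GRCm38, the build of the deposited counts. Il6 lies at chr5:30013114-30019981 (+ strand), Il10 at chr1:131019845-131024974 (+) and Il12a at chr3:68690644-68698547 (+). Il12b lies at chr11:44400063-44414033 (+), Il23a at chr10:128296139-128298752 (-), Il27 at chr7:126589010-126594941 (-) and Ebi3 at chr17:55952640-55957022 (+). Osm at chr11:4236420-4241026 (+) and Lif at chr11:4257557-4272514 (+) are neighbours, 16530 bp apart.

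RefSeq promoter sequences (GRCm38.p6, the 250 bases before the start site) were at hand for 5 of the 9 genes, Il6, Il12a, Il12b, Ebi3 and Lif. Il12a and Lif, called higher with LPS in 5 of 5 and 3 of 5 cell types tested, are not shown. The 3 shown are Il6 and Ebi3, called in 7 of 8 and 10 of 10, and Il12b, called in 1 of 3. Each reads 5′ to 3′ on the + strand, with motif matches in capitals, at chr5:30012864-30013113, chr17:55952373-55952622 and chr11:44399813-44400062.
Il6: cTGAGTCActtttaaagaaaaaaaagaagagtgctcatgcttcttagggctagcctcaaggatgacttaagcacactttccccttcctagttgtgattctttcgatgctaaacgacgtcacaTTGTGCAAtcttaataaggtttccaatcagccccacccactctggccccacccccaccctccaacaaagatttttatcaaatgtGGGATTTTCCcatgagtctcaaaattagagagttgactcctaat
Ebi3: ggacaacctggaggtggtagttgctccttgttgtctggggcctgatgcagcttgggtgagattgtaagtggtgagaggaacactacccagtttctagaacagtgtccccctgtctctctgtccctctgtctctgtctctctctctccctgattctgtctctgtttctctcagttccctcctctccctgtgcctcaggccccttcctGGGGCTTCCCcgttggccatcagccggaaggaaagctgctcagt
Il12b: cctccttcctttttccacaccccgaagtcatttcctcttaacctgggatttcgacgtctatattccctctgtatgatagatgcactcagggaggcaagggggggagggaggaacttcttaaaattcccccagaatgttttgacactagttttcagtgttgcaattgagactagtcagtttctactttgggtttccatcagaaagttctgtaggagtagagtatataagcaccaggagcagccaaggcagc

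Both strands were searched for the NF-kB consensus, the C/EBP motif TTGCNNAA, the AP-1 motif TGANTCA and the IRF motif (GAAA, any 2 bases, GAAA). Il6 and Ebi3 each held an NF-kB match at the same place, -44 to -35 from the start site. Il6 also held a C/EBP match at -128 to -121 and an AP-1 match at -249 to -243, and Lif an AP-1 match at -228 to -222. The Il12b window and both Il12a windows, before chr3:68690644 and chr3:68691424, held none of these letters. Whether matches go with the calls was not tested. Among 32851 promoters of the same length, 3.9% held the NF-kB consensus, 9.56% the C/EBP, 6.75% the AP-1 and 2.98% the IRF motif. A match is a description of the sequence, not a bound site.

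Cells were clustered without the 9 genes and named from marker lists, which gave 11 cell types with at least 30 cells in every library. All 8 neutrophil, 8 B cell, 10 alveolar macrophage and 7 T cell markers were highest in the cell type they name, as were 5 of 6 for each kind of monocyte and 17 of 22 for dendritic cells. The level of a gene is given as scaled CPM, that is UMIs per 1000000 UMIs of the cell type in that library after trimmed-mean (TMM) scaling. The tests are edgeR's quasi-likelihood tests over all genes of a cell type, called at a Benjamini-Hochberg adjusted p under 0.05. Within a named type, vehicle and LPS cells lay mostly in different clusters: the shared part was 0.119% in endothelial cells, 0.522% in neutrophils, 5.21% in classical monocytes, 6.35% in B cells and 54% in stromal cells, the highest. LPS against vehicle therefore also compares different states of a type. Between wild type and Nos1-/- cells with LPS the shared part was 55.8% in alveolar macrophages, the lowest, and 64% in classical monocytes. It was 68.3% in endothelial cells, 70.6% in neutrophils and 99.5% in nonclassical monocytes, the highest. The genotype comparison is thus also not one of fully like states in several types.

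LPS at 4 h raised the members broadly. Of the 99 pairs of a member and a cell type, 59 had enough UMIs to be tested, and in 52 of these the member was higher with LPS than with vehicle, in 0 lower and in 7 not called (54 had an unadjusted p under 0.05). Over all genes and cell types 27.7% of tests were called higher and 24.7% lower. By cell type, the members called higher were 8 of 8 in alveolar macrophages (28.7% of all genes there), 5 of 5 in B cells (33.9%), 7 of 9 in classical monocytes (31.8%), 4 of 5 in dendritic cells (26.3%), 4 of 4 in endothelial cells (32%), 5 of 6 in interstitial macrophages (19.7%), 4 of 4 in NK cells (24.2%), 6 of 8 in neutrophils (29.7%), 5 of 6 in nonclassical monocytes (28.5%), 1 of 1 in stromal cells (16.6%) and 3 of 3 in T cells (25.4%). A pair could be tested when it was high in LPS cells alone, so the 59 are not all members in all cells. Over Xist-only cells, which leave the Nos1-/- libraries alone because the wild type vehicle library held almost none, 37 of 52 pairs were called higher and 1 lower. The share of all genes called was not counted for that fit, and the 27.7% above does not belong to it. The 7 pairs not called were Il10 in interstitial macrophages, Il6 and Lif in neutrophils, Il12b and Lif in classical monocytes, Il12b in dendritic cells and Osm in nonclassical monocytes.

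**Figure D1:**
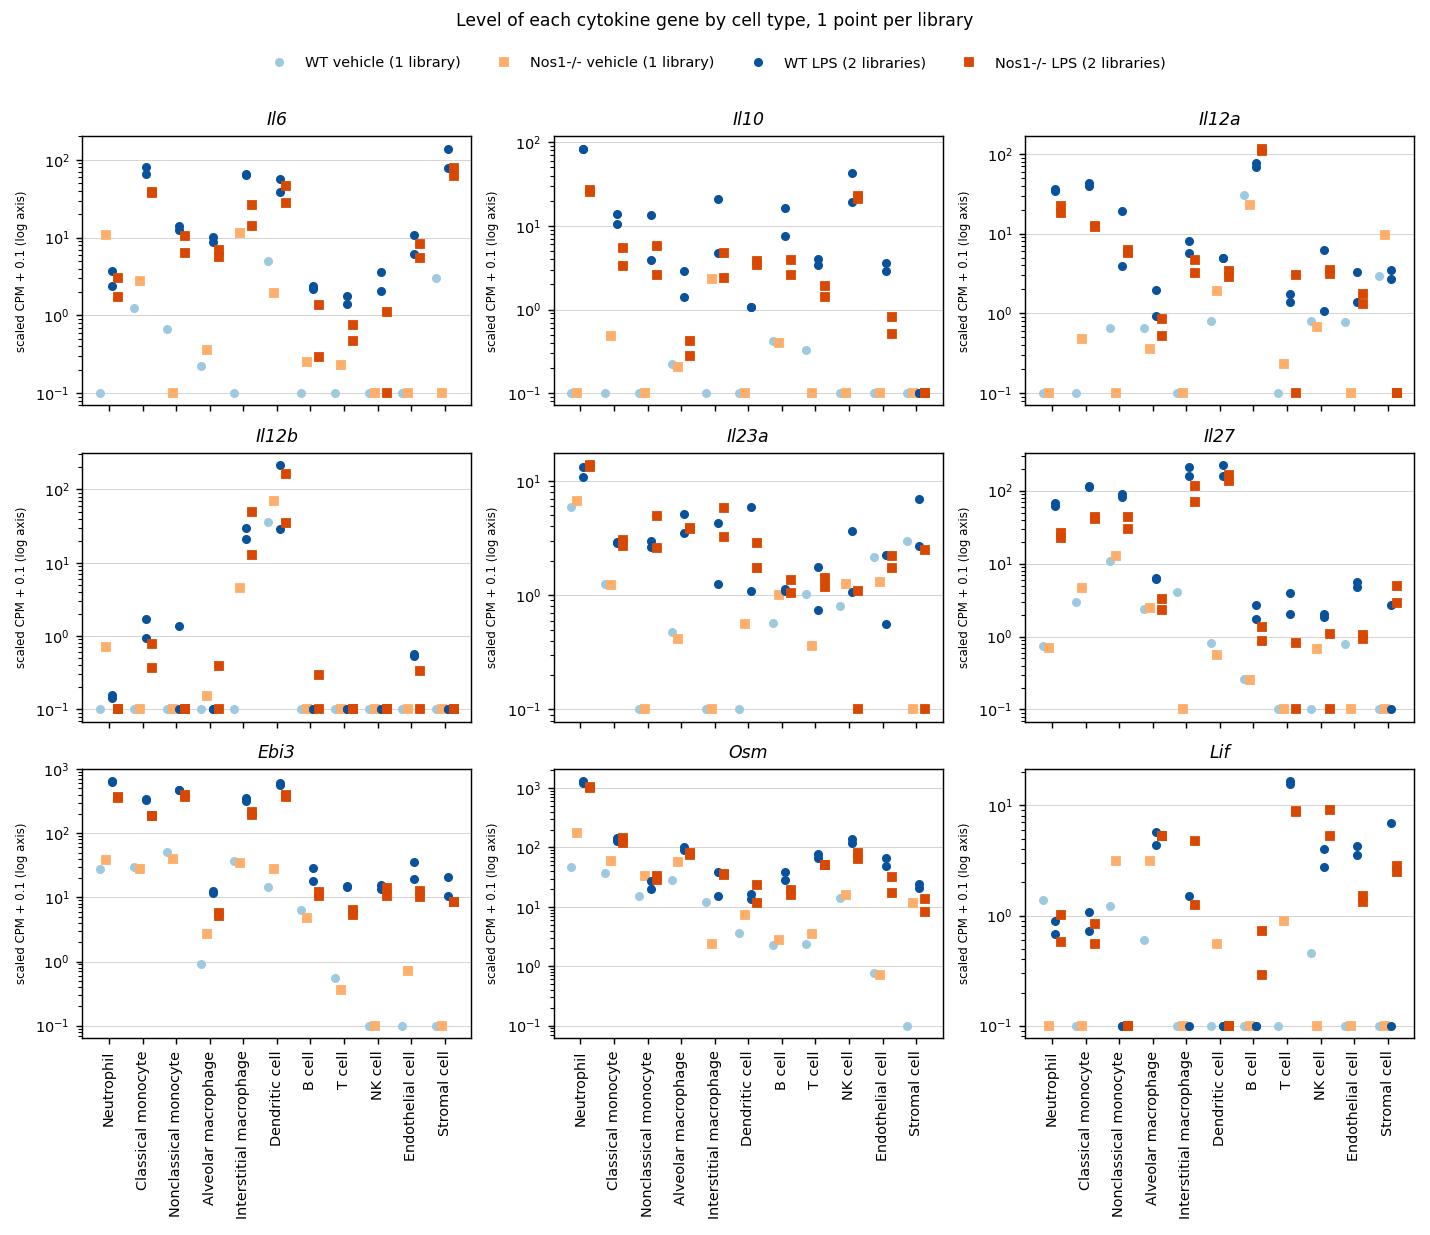
Level of each member gene in each cell type, in scaled CPM plus 0.1 on a log axis, with 1 point per library and colours for the 4 groups. LPS points lie above vehicle points for most members. The cell type with the highest mean level with LPS differs among members, and is neutrophils for Osm and T cells for Lif.

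Osm, a ligand that acts on stromal, endothelial and liver cells, was above all a neutrophil gene. In neutrophils it stood at 47.3 scaled CPM in the wild type vehicle library and 178 in the Nos1-/- vehicle library, against 1237 and 1315 in the wild type LPS libraries and 1059 and 1003 in the Nos1-/- LPS libraries. All 4 LPS libraries lay far above both vehicle libraries, a log2 difference of 3.64 ± 0.07 (SE, adjusted p = 2.46e-14). TMM scaling widened it: without TMM the levels were 91.7 and 307 CPM with vehicle and 797 to 898 with LPS, and the difference was 2.34, still called. Neutrophils held 86.4% of the Osm UMIs of the LPS libraries, and classical monocytes 7.15%. The order of mean levels in wild type LPS was neutrophils, classical monocytes (136), NK cells (128), alveolar macrophages (96.3) and T cells (72.5), where classical monocytes and NK cells overlapped. Osm also rose in alveolar macrophages by 1.10 ± 0.06 and in classical monocytes by 1.51 ± 0.12 on the log2 scale, with adjusted p of 2.17e-09 and 1.07e-06. In nonclassical monocytes, at 15.2 and 32.8 with vehicle and 20.2 to 33.5 with LPS, the libraries overlapped and the difference of 0.26 ± 0.23 was not called (adjusted p = 0.339).

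Il6, the acute-phase cytokine, was led per UMI by stromal cells and in sum by classical monocytes. Stromal cells held 1 and 0 Il6 UMIs in the vehicle libraries, and stood at 78.6 and 140 scaled CPM in wild type LPS and 62.6 and 79.5 in Nos1-/- LPS. That is 78.9-fold higher, with a counting interval of 14.2 to 3120 that rests on the single vehicle UMI. In classical monocytes the levels were 1.15 and 2.65 with vehicle, 65.1 and 80.7 in wild type LPS and 37.9 and 38.8 in Nos1-/- LPS, a log2 rise of 4.91 ± 0.27 (adjusted p = 5.66e-08). Because they were many, classical monocytes held 72.5% of the Il6 UMIs of the LPS libraries, alveolar macrophages 9.38% and stromal cells 3.45%. In wild type LPS the mean levels of stromal cells (109), classical monocytes (72.9) and interstitial macrophages (64.6) followed each other with overlap between neighbours in the first 2 pairs, and dendritic cells (47.4) came next. Neutrophils stayed at 1.60 to 3.59 in the 4 LPS libraries. Their vehicle libraries had 0 and 18 Il6 UMIs, and the difference was not called.

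Few cells carried much of the Il6. One monocyte of the second wild type LPS library held 104 of its 1146 Il6 UMIs, which is 9.08%. The 10 highest monocytes of a library held 20.5% to 28.7% of the Il6 UMIs in the 4 LPS libraries. Stromal Il6 rested on fewer cells still, with 30 and 41 UMIs in wild type LPS and 52 and 29 in Nos1-/- LPS. The 10 highest stromal cells of a library held 75% to 96.7% of these. In the first wild type LPS library 1 stromal cell held 11 of the 30.

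Lif, a ligand that keeps stem cells undifferentiated and acts on many tissues, was the sparsest member, with 599 UMIs in all named cells. Its highest mean level with LPS was in T cells, with 0 and 0.785 scaled CPM in the vehicle libraries, 16.5 and 15.6 in wild type LPS and 8.72 and 8.58 in Nos1-/- LPS, a log2 rise of 6.06 ± 0.62 (adjusted p = 2.99e-10). Alveolar macrophages held the most Lif UMIs, 52% of those in the LPS libraries, at 0.497 and 3.002 with vehicle and 4.29 to 5.59 with LPS (log2 rise 2.04 ± 0.24, adjusted p = 5.30e-06). All 4 LPS libraries exceeded both vehicle libraries in each of these cell types. Lif was also called higher in NK cells, 1 and 0 UMIs with vehicle and 3 to 9 with LPS. In Nos1-/- LPS the NK cells stood at 5.17 to 8.96 scaled CPM and overlapped the T cells.

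Il10 was nearly absent without LPS and became a neutrophil gene with it. Neutrophils had 0 Il10 UMIs in both vehicle libraries, and 84.1 and 83.5 scaled CPM in wild type LPS against 26.7 and 25.3 in Nos1-/- LPS. Set against the floor of 3 UMIs over the vehicle libraries, neutrophil Il10 was at least 58.7-fold higher with LPS, or at least 22.3-fold without TMM. Neutrophils held 83.5% of the Il10 UMIs of the LPS libraries and classical monocytes 9.15%. NK cells came second by level, with 0 and 0 UMIs with vehicle and 19.5 to 42.6 scaled CPM with LPS, at least 40.2-fold higher. In B cells Il10 went from 0.315 and 0.30 to 16.4 and 7.49 in wild type LPS and 3.81 and 2.50 in Nos1-/- LPS (log2 rise 4.25 ± 0.57, adjusted p = 2.38e-07).

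Il12a, the chain common to interleukin-12 and interleukin-35, had 2 kinds of source. B cells carried it without LPS, at 30.1 and 22.5 scaled CPM with vehicle, and rose to 69.1 and 77.5 in wild type LPS and 117 and 109 in Nos1-/- LPS (log2 rise 1.80 ± 0.10, adjusted p = 6.63e-15). Neutrophils had 0 UMIs in both vehicle libraries and 36.1, 34.6, 22.4 and 17.9 scaled CPM in the LPS libraries, at least 29.7-fold higher, or at least 11.7-fold without TMM. Classical monocytes had 0 and 1 UMIs with vehicle and 42.7 and 39.4 scaled CPM in wild type LPS, 12.1 and 12.4 in Nos1-/- LPS, which is 117-fold with a counting interval of 21 to 4620. Over the 4 LPS libraries together, B cells held 26.9%, classical monocytes 29.3% and neutrophils 39.8% of the Il12a UMIs. These shares varied between libraries, from 14.0% to 48.2% for B cells, 12.99% to 39.4% for classical monocytes and 32.6% to 42.4% for neutrophils.

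Il12b, the chain common to interleukin-12 and interleukin-23, had most of its UMIs in dendritic cells when the 4 LPS libraries were pooled (75.9%), with a range of 35.6% to 88.9% over the libraries. Interstitial macrophages held 5.53% to 54.2%. Dendritic cells stood at 35.5 and 69.6 scaled CPM with vehicle, and at 217 and 28.4 in wild type LPS and 163 and 34.5 in Nos1-/- LPS. The first replicate of each LPS group was high and the second low. In the second replicates interstitial macrophages stood at 29.4 and 49.9, no lower than the dendritic cells. The vehicle and LPS libraries overlapped, and the log2 difference of 1.21 ± 0.54 was not called (adjusted p = 0.0761). Every Il12b UMI of the dendritic class came from cells with the markers of mature dendritic cells (Ccr7, Fscn1), and cDC1 and cDC2 cells had 0 in each library. Wild type LPS libraries held 0 cells named cDC1 or cDC2 against 31 and 92 in wild type vehicle, so the makeup of the dendritic class by name changed between treatments. Within mature dendritic cells alone, Il12b was at 313 and 381 CPM without scaling in the vehicle libraries, 180 and 24.2 in wild type LPS, and 195 and 37.5 in Nos1-/- LPS. Mature cells of the 2 treatments also lay mostly in different clusters. A single cluster held all 24 mature cells of wild type vehicle and 34 of 37 of Nos1-/- vehicle, but 11 of 118 and 16 of 137 of wild type LPS and 16 of 93 and 9 of 65 of Nos1-/- LPS. A few cells set these values: the highest cell of the first Nos1-/- LPS library held 80 of 177 Il12b UMIs, and that of the first wild type LPS library 70 of 226. Interstitial macrophages were the only type of the 3 tested in which Il12b was called higher, from 0 and 2 UMIs with vehicle to 11 to 32 with LPS (adjusted p = 0.0143). That call was lost with DESeq2, without either vehicle library and in Xist-only cells.

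Il23a, the chain specific to interleukin-23, rose in alveolar macrophages from 0.373 and 0.316 scaled CPM to 3.41, 5.04, 3.68 and 3.79 in the LPS libraries (log2 rise 3.48 ± 0.33, adjusted p = 7.44e-07). Neutrophils held 68.1% of its LPS UMIs, at 5.83 and 6.61 with vehicle and 10.8 to 13.7 with LPS (log2 rise 1.03 ± 0.26, adjusted p = 0.00435). That neutrophil rise depended on the scaling. Without TMM the median of all neutrophil genes moved from 0.41 to -0.886 on the log2 scale, and the Il23a difference became -0.27 (adjusted p = 0.525). One neutrophil of the first wild type LPS library held 53 of its 288 Il23a UMIs.

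Il27 and Ebi3, the chains of interleukin-27, were called higher by edgeR in the 8 and 10 cell types where they were tested. DESeq2 did not call Il27 in alveolar macrophages, B cells and endothelial cells, and those 3 calls were also lost without the wild type vehicle library. Il27 in classical monocytes went from 2.87 and 4.54 scaled CPM to 113 and 117 in wild type LPS and 41.4 and 44.1 in Nos1-/- LPS (log2 rise 4.27 ± 0.15, adjusted p = 1.45e-09). The highest mean levels in wild type LPS were those of dendritic cells (192) and interstitial macrophages (183), which overlapped, ahead of classical monocytes (115.2), nonclassical monocytes (85.9) and neutrophils (64.7). Dendritic cells had 1 Il27 UMI in each vehicle library and were 308-fold higher with LPS (counting interval 85.3 to 2550). That fold compares cells of different names, since those named cDC1 and cDC2 were 123 of 147 and 118 of 155 vehicle dendritic cells. Whether LPS changed the markers by which dendritic cells were named was not tested. Within mature dendritic cells Il27 was at 6.26 and 0 CPM without scaling with vehicle, on 1 and 0 UMIs. With LPS it was at 131.5 to 194.2 there. Classical monocytes held 47.6% and neutrophils 35.8% of the LPS UMIs.

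Ebi3 in neutrophils went from 27.9 and 37.8 scaled CPM with vehicle to 653 and 628 in wild type LPS and 373 and 359 in Nos1-/- LPS (log2 rise 3.90 ± 0.08, adjusted p = 5.45e-14), a rise of 2.60 without TMM. In dendritic cells it went from 14.2 and 27.3 to 616 and 568 in wild type LPS and 398 and 365 in Nos1-/- LPS (log2 rise 4.58 ± 0.15, adjusted p = 2.54e-12). The change of makeup applies here too. Within mature dendritic cells Ebi3 was at 6.26 and 29.9 CPM without scaling with vehicle, on 1 and 12 UMIs, and at 387 to 512 with LPS. Nonclassical monocytes stood at 50.1 and 40.1 with vehicle and reached 363 to 475 with LPS. Neutrophils held 65.6% and classical monocytes 25.2% of the Ebi3 UMIs of the LPS libraries.

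**Figure D2:**
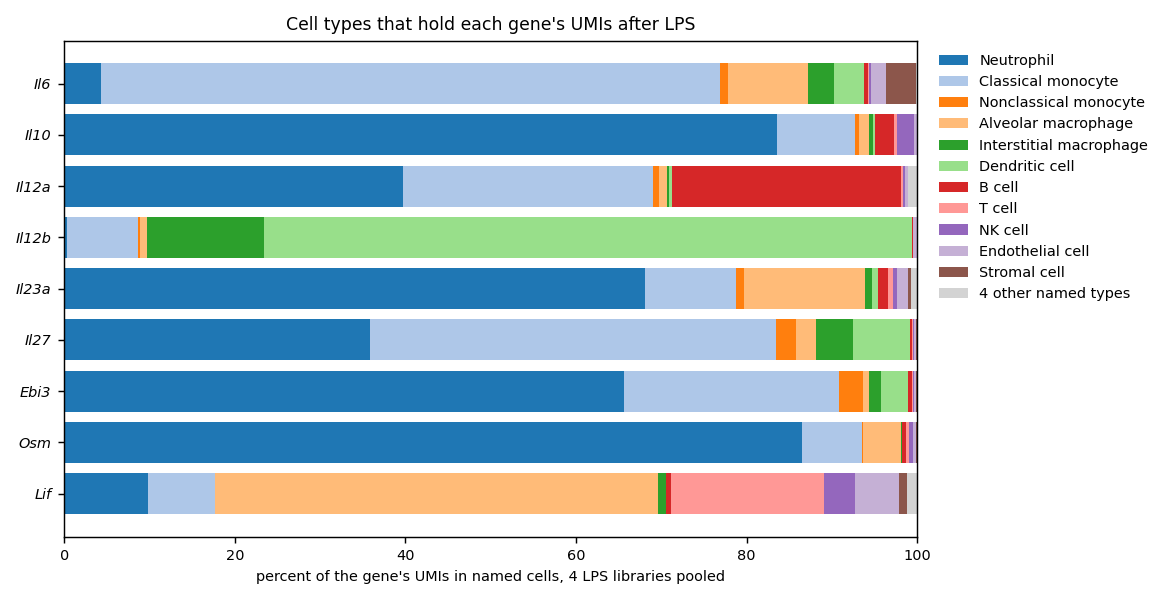
Share of each member's UMIs in the LPS libraries that came from each named cell type, in percent of the member's UMIs in all named cells. Osm, Il10, Il23a and Ebi3 are mostly neutrophil UMIs, Il6 classical monocyte UMIs and Lif alveolar macrophage UMIs. The libraries are pooled, and the dendritic cell share of Il12b ran from 35.6% to 88.9% between them.

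Other cell types of the LPS libraries, classical monocytes among them, also held RNA of neutrophil markers. The 8 neutrophil markers summed to 0.101% and 0.186% of the neutrophil level in B cells with vehicle, against 2.82% and 1.80% in wild type LPS and 0.855% and 0.815% in Nos1-/- LPS, with 0 of 8 markers at 0 in each LPS library. In endothelial cells the sum was 6.25% and 2.92% in wild type LPS and 1.61% and 1.40% in Nos1-/- LPS, and in T cells 2.23% and 2.01% against 0.856% and 1.06%. Osm in B cells was at 4.55% and 3.17% of the neutrophil Osm level in wild type LPS and 1.82% and 2.23% in Nos1-/- LPS. Osm in endothelial cells was at 7.04% and 4.71% against 3.21% and 1.82%, and in T cells at 9.08% and 7.26% against 5.60% and 5.53%. In alveolar macrophages the marker sum was 1.49% and 1.14% against 0.58% and 0.445%, and in NK cells 3.16% and 1.58% against 1.27% and 0.792%. In classical monocytes it was 0.391% and 0.59% with vehicle, 5.43% and 4.4% in wild type LPS and 2.785% and 5.03% in Nos1-/- LPS. The part of neutrophil RNA in the Osm, Ebi3 and Il10 values of these cells was not tested.

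Nos1-/- against wild type under LPS compares levels after LPS, not the size of the LPS response. The 2 groups also differ in sex marks, so the comparison is not of genotype alone. Over the 59 tested pairs the member was lower in the Nos1-/- libraries in 29, higher in 1 and not called in 29 (34 had an unadjusted p under 0.05). Over all genes and cell types 10.2% of tests were called lower and 8.37% higher. The libraries of the 2 genotypes did not overlap in 39 pairs, of which 35 were lower. Over all genes and cell types 57.1% of tests had no overlap, and 28.2% were lower without overlap. By member, those lower were Ebi3 in 8 of 10 cell types, Il27 in 6 of 8, Osm in 6 of 10, Il10 in 4 of 7, Il6 in 3 of 8 and Il12a in 2 of 5, while Il12b (3 tested), Il23a (3) and Lif (5) were called in none. Il12b in dendritic cells, at -0.18 ± 0.59, turned to 1.93 (adjusted p = 1.71e-08) without the first wild type LPS library, whose level was the highest.

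By cell type, members called lower were 5 of 8 in alveolar macrophages (18.5% of all genes), 3 of 5 in B cells (18.8%), 5 of 9 in classical monocytes (16.6%), 1 of 5 in dendritic cells (3.32%), 3 of 4 in endothelial cells (11.3%), 3 of 6 in interstitial macrophages (1.88%), 1 of 4 in NK cells (2.53%), 5 of 8 in neutrophils (16.8%), 2 of 6 in nonclassical monocytes (2.65%), 0 of 1 in stromal cells (1.79%) and 1 of 3 in T cells (4.77%). The call of 29 is not stable in number. DESeq2 called 14 lower, and Xist-only cells gave 15 lower and 3 higher of 52 tested (over all genes there, 5% were lower and 4.57% higher).

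**Figure D3:**
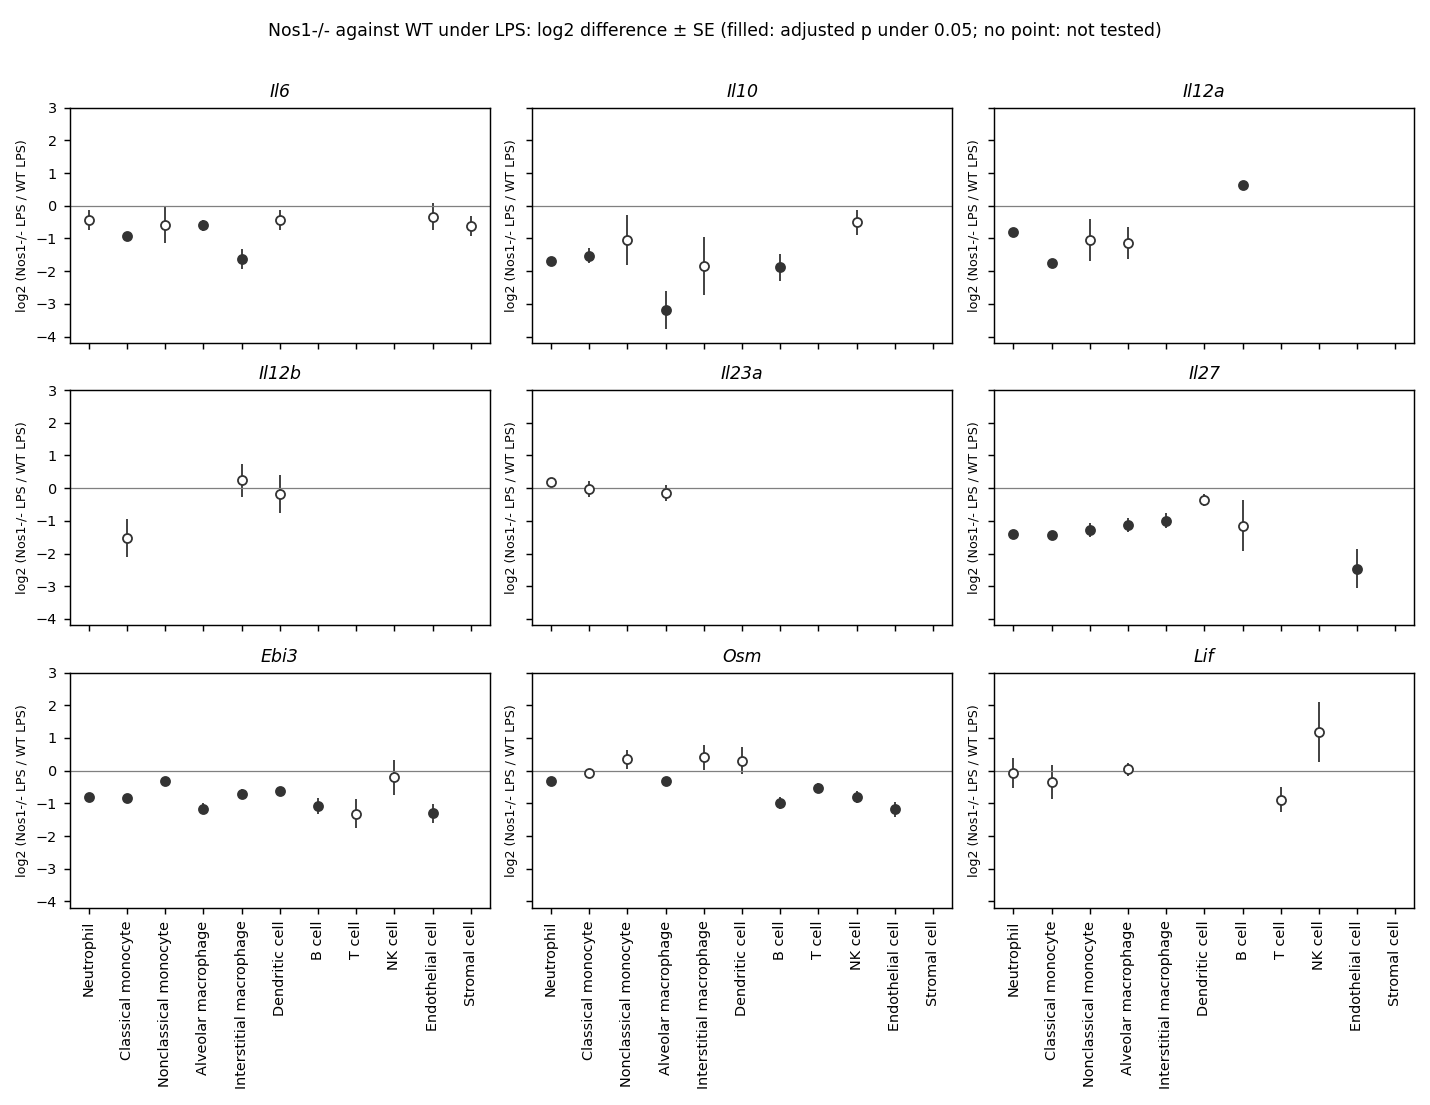
Log2 difference of Nos1-/- LPS minus wild type LPS for each member by cell type, with 1 panel per gene, bars of 1 SE and filled points for an adjusted p under 0.05. Pairs not tested have no point. The 29 filled points below 0 include Il10, Il27 and Ebi3 in neutrophils, and Il12a in B cells is the 1 filled point above 0.

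Il10 was lower in 4 of the 7 cell types tested. In neutrophils its wild type LPS levels of 84.1 and 83.5 scaled CPM stood against 26.7 and 25.3 in Nos1-/- LPS, with no overlap, a log2 difference of -1.68 ± 0.06 (adjusted p = 1.22e-09). TMM scaling widened this difference too: without TMM the levels were 54.15 and 53.21 CPM against 22.64 and 21.84. Xist-only neutrophils gave -1.12 ± 0.15 (adjusted p = 0.000131). Classical monocytes went from 10.4 and 13.7 to 3.24 and 5.37 (-1.53 ± 0.23, adjusted p = 0.000562), a difference that was -1.08 and not called in Xist-only cells (adjusted p = 0.306). B cells at -1.89 ± 0.40 and alveolar macrophages at -3.19 ± 0.58 were also called lower in Xist-only cells, the latter on 41 and 14 UMIs against 3 and 3 over all cells. Both calls were lost with DESeq2, and that in B cells also without the first wild type LPS library. Neutrophil markers in both cell types were higher in wild type LPS, as given above.

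Il27 was lower in classical monocytes by a log2 difference of -1.43 ± 0.06 (adjusted p = 2.04e-07) and in neutrophils by -1.39 ± 0.08 (adjusted p = 3.83e-08). The neutrophil levels were 67.7 and 61.8 scaled CPM in wild type LPS and 26.5 and 22.3 in Nos1-/- LPS. Without TMM they lay closer, at 43.57 and 39.4 CPM against 22.42 and 19.22. Xist-only cells gave -0.63 ± 0.08 in monocytes (adjusted p = 0.00419) and -0.96 in neutrophils, still called. In dendritic cells, at 158 and 227 against 162 and 137, the libraries overlapped and no difference was called (adjusted p = 0.298).

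Ebi3 fell in neutrophils by 0.81 ± 0.04 on the log2 scale (adjusted p = 1.67e-08) and in classical monocytes by 0.84 ± 0.05 (adjusted p = 1.11e-06), where the levels were 342 and 325 scaled CPM in wild type LPS and 184 and 188 in Nos1-/- LPS. TMM scaling widened the neutrophil difference: without TMM the levels there were 420.3 and 400.5 CPM in wild type LPS and 316.5 and 309.4 in Nos1-/- LPS. In Xist-only cells neutrophil Ebi3 was still called lower, at -0.40, while monocyte Ebi3 was at -0.03 ± 0.07 (adjusted p = 0.822) and dendritic Ebi3 at -0.02 ± 0.16 (adjusted p = 0.985) against -0.63 ± 0.12 over all cells. The dendritic class also differed in makeup: cDC1 and cDC2 cells were 26 of 119 and 12 of 77 in Nos1-/- LPS and 0 in wild type LPS. The 17 and 10 cDC1 cells held 8 and 5 Ebi3 UMIs. Within mature dendritic cells Ebi3 was at 512 and 483 CPM without scaling in wild type LPS and 464.5 and 387 in Nos1-/- LPS. The dendritic call was also lost with doublets kept and without the second Nos1-/- LPS library.

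Il6 in classical monocytes was at 65.1 and 80.7 scaled CPM in wild type LPS and 37.9 and 38.8 in Nos1-/- LPS, a log2 difference of -0.92 ± 0.10 (adjusted p = 5.25e-05). In Xist-only cells it was -0.33 ± 0.11 and not called (adjusted p = 0.0944). Interstitial macrophages showed 63.4 and 65.8 against 26.1 and 14.0 (-1.62 ± 0.31, adjusted p = 0.011), and in Xist-only cells -0.88 ± 0.36 (adjusted p = 0.319).

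Il12a moved in 2 directions. In classical monocytes it was lower by a log2 difference of -1.75 ± 0.09 (adjusted p = 6.97e-07), from 42.7 and 39.4 to 12.1 and 12.4 scaled CPM, and in neutrophils by -0.79 ± 0.09 (adjusted p = 2.38e-05). In B cells it was higher by 0.63 ± 0.11 (adjusted p = 3.16e-05), from 69.1 and 77.5 to 117 and 109, the only member called higher (15.5% of all B cell genes were called higher). Xist-only cells gave -0.56 ± 0.10 in monocytes (adjusted p = 0.0144), -0.40 ± 0.17 in neutrophils (adjusted p = 0.124) and 0.75 ± 0.12 in B cells (adjusted p = 4.54e-05). TMM scaling widened the neutrophil difference of Il12a. Without TMM its neutrophil levels were 23.25 and 22.06 CPM in wild type LPS and 18.97 and 15.41 in Nos1-/- LPS.

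Osm differed little where it is most abundant. The neutrophil libraries did not overlap, at 1237 and 1315 against 1059 and 1003 scaled CPM, and the log2 difference was -0.31 ± 0.04 (adjusted p = 0.00014). Without TMM the median of all neutrophil genes moved from 0.0442 to 0.456 and the Osm difference turned to 0.11 (adjusted p = 0.0353). Classical monocytes, at 127 and 145 against 119 and 143, overlapped. In alveolar macrophages the difference of -0.32 ± 0.06 turned to 0.26 ± 0.07 in Xist-only cells (adjusted p = 0.0114).

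The cells of the Nos1-/- LPS libraries were not alike. Dendritic cells with Y-linked UMIs and no Xist stood at 78.4 and 81.7 scaled CPM of Ebi3, on 20 and 9 UMIs, against 569 and 497 in Xist-only dendritic cells of the same libraries. Classical monocytes with Y marks showed Ebi3 at 122 and 114 against 278 and 289, and Il12a at 3.24 and 5.19 against 27.7 and 27.1. B cells with Y marks showed Il12a at 47.0 and 34.9, on 13 and 6 UMIs, against 123 and 108. Alveolar macrophage Osm was 54.0 and 39.9 against 108 and 100. Osm in neutrophils ran the other way, 1126 and 1110 against 979 and 987. In each of these examples the 2 kinds of cell did not overlap between the libraries, and no test was made because cells of 1 library are not replicates. From which animals each kind of cell came is not stated in the labels.

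**Figure D4:**
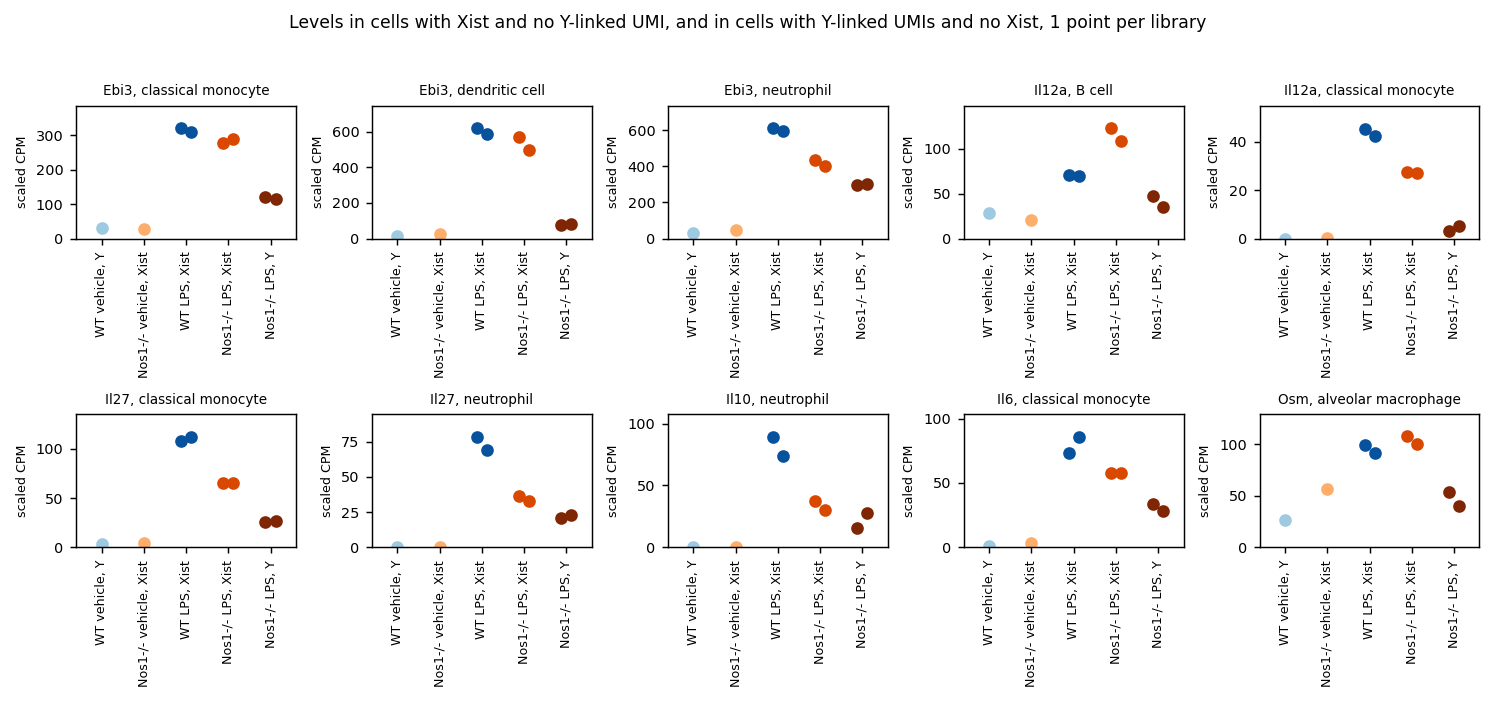
Level of selected members, in scaled CPM on linear axes, in cells with Y-linked UMIs and no Xist (Y) or Xist-only cells (Xist) of each group, with 1 point per library and 1 panel per gene and cell type. Within the Nos1-/- LPS libraries the Y-marked points lie below the Xist-only points in each of the panels, for example 78.4 and 81.7 against 569 and 497 for Ebi3 in dendritic cells.

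The vehicle libraries, 1 per genotype, allow no test. Among the 99 pairs, 71 had a UMI in either library, and in 8 the 95% Poisson interval (counting error only) of the Nos1-/- library lay above that of the wild type library, in 0 below. Over all genes with a UMI in either library, 2.41% were above and 2.14% below. Naming each cell on its own gave 6 above and 1 below among the members. Osm accounted for 4 of the 8: neutrophils at 47.3 (37.1 to 59.5) against 178 (159 to 200) scaled CPM, alveolar macrophages at 28.4 against 56.9, classical monocytes at 36.7 against 59.0, and nonclassical monocytes at 15.2 against 32.8. The others were Il6 in neutrophils (0 against 18 UMIs), Il12b in dendritic cells (50 against 153 UMIs), and Ebi3 (13 against 49) and Lif (8 against 57) in alveolar macrophages. For Il12b the highest cell held 23 of the 50 and 67 of the 153 UMIs, a spread that the Poisson interval leaves out. Mature dendritic cells, which held all of these UMIs, were 24 of 147 and 37 of 155 dendritic cells. Within them Il12b was at 313 against 381 CPM without scaling. Sex marks and genotype cannot be told apart in these 2 libraries.

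The LPS response differed between genotypes for 8 of the 59 pairs, 7 of them lower in the Nos1-/- libraries and 1 higher (18 had an unadjusted p under 0.05, and over all genes and cell types 3.1% were called lower and 2.49% higher). In neutrophils the log2 LPS response was smaller by 2.22 ± 0.15 for Osm and by 1.25 ± 0.21 for Ebi3, with adjusted p of 1.14e-06 and 0.00253 (5.03% of all neutrophil genes were called lower). In alveolar macrophages (6.32%) it was smaller by 2.83 ± 0.41 for Ebi3, 1.33 ± 0.12 for Osm and 2.53 ± 0.51 for Lif. In dendritic cells (0.582%) it was smaller by 1.57 ± 0.34 for Ebi3, a call lost with doublets kept and without the second Nos1-/- LPS library, where the class makeup differed as given above. In B cells, where 7.33% of genes were called higher, it was larger by 1.05 ± 0.21 for Il12a. Under LPS alone the Nos1-/- libraries differed from wild type by a log2 difference of -0.31 for neutrophil Osm and 0.04 for alveolar macrophage Lif, and the vehicle levels of both were higher in the Nos1-/- library. Il6 in neutrophils, also called lower, rests on 0 against 18 vehicle UMIs. These values rest on 1 vehicle library per genotype, and those 2 libraries carry different sex marks.

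Shares of cells with a UMI were compared after each cell was thinned to 2000 UMIs. Among neutrophils, 55.1% and 52.4% of wild type LPS cells had an Ebi3 UMI against 43.6% and 42.6% of Nos1-/- LPS cells, and 4.76% (2 of 42 cells deep enough) and 11.8% with vehicle. Without thinning the shares were 83.3%, 76.3%, 72.4% and 64.3%. Ebi3 UMIs were found in 1.15%, 2.23%, 1.08% and 0.674% of thinned T cells, a type with little Ebi3, whose median depth was 3124 to 4927.5 UMIs against 3698 to 5473 in neutrophils. Il10 was in 6.46% and 6.41% of wild type LPS neutrophils against 3.09% and 2.75%, and in 0.573%, 0.496%, 0% and 0% of T cells. Il27 was in 17.7% and 17.0% of classical monocytes against 8.08% and 8.32%. Il12a was in 12.6% and 9.97% of B cells against 19.9% and 13.6%. Osm was in 62.4% and 63.2% of neutrophils against 65.6% and 66.0%, so its share went against its slightly lower level and no order is read from it.

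Partner chains were looked for in the same thinned cells. Il12a and Il12b were not found together in any thinned cell of any library, and Il23a and Il12b in at most 1 cell per library and cell type. Few cells could have shown both. Thinned dendritic cells held Il12a in 2 and 1 cells of wild type LPS and 0 and 0 of Nos1-/- LPS. They held Il12b in 8 and 3, and 9 and 1. These counts are too low to show whether the chains are made apart. Il27 and Ebi3, each found in more cells, were together more often. In the first wild type LPS library 177 of the 308 neutrophils with Il27 also had Ebi3, 57.5%, against 54.9% of the neutrophils without Il27. The shares were 42.2% against 43.6% in the first Nos1-/- LPS library. In dendritic cells of that library 14 of 19 cells with Il27 had Ebi3, 73.7%, against 33.7% of the rest, and in the first wild type LPS library 56.3% against 50.6%. In the second libraries the shares were 45.5% against 37.1% in Nos1-/- LPS and 69.6% against 43.8% in wild type LPS. In Nos1-/- LPS the rest also included cells named cDC1 and cDC2, 26 of 119 and 12 of 77 dendritic cells before thinning. Those cells held 0 Il27 UMIs, so the 2 sides differ in makeup there.

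The machinery around the members was followed in 7 lists of genes in neutrophils and classical monocytes. Of the list of regulators that act on Il10 or restrain the members, only single genes are given. The list of other cytokines of these families is not described here. Beside the counts, 29.7% of all neutrophil genes were called higher with LPS and 20.5% lower, and 31.8% and 26.6% of all monocyte genes. With LPS, 7 of 10 feedback inhibitors and STAT3 targets rose in neutrophils and 8 of 10 in classical monocytes, with medians of 2.40 and 2.00 on the log2 scale beside 0.41 and 0.0809 over all genes. Socs3, which blocks interleukin-6 signalling, rose by 3.10 ± 0.05 in neutrophils and 3.15 ± 0.06 in monocytes. Socs1, which blocks JAK kinases, rose by 5.18 ± 0.12 and 3.62 ± 0.12, and Il4ra by 3.33 ± 0.07 and 3.69 ± 0.08. Of the receptor chains, 6 of 9 rose and 1 fell in neutrophils, while 2 of 10 rose and 3 fell in monocytes. The interleukin-10 receptor chains Il10ra and Il10rb rose in neutrophils by 3.27 ± 0.10 and 2.19 ± 0.07. In monocytes Lifr fell by 2.38 ± 0.16 and Il6ra by 0.72 ± 0.05.

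Of the 11 JAKs and STATs, 8 rose and 2 fell with LPS in neutrophils, led by Stat2 at 5.30 ± 0.10, and 7 rose and 4 fell in monocytes, led by Jak2 at 2.18 ± 0.07. Transcriptional activators of the members rose in 11 of 14 cases in neutrophils (Cebpb 2.33 ± 0.04, Ets2 2.83 ± 0.06, Nfkbiz 2.52 ± 0.05) and in 7 of 14 in monocytes, where the other 7 fell (Fos by 1.96 ± 0.05). Maf, an activator of Il10 in macrophages, rose in monocytes by 4.07 ± 0.08, and Nfil3 in neutrophils by 3.21 ± 0.08. Among genes of mRNA decay, 5 of 8 rose and 1 fell in neutrophils (3 and 4 without TMM) and 4 rose and 2 fell in monocytes. Zc3h12a, which degrades Il6 mRNA, rose by 2.85 ± 0.07 and 1.80 ± 0.08, and Zfp36l2 fell by 2.60 ± 0.05 and 2.84 ± 0.05. Without TMM, 6 of 14 activators, 5 of 11 JAKs and STATs and 2 of 9 receptor chains were called higher in neutrophils. The median of all neutrophil genes was then -0.886, and the share of all genes called without TMM was not counted.

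Under LPS the Nos1-/- libraries were lower than wild type for 8 of 10 feedback inhibitors in neutrophils, 7 of 10 in monocytes and 8 of 10 in alveolar macrophages, with medians of -0.61, -0.67 and -0.67 beside 0.0442, 0.00488 and 0.0166 over all genes, of which 16.8%, 16.6% and 18.5% were lower. Neutrophil Socs3 stood at 2233 and 2331 scaled CPM in wild type LPS and 1245 and 1271 in Nos1-/- LPS, a log2 difference of -0.86 ± 0.04. Activators were lower for 11 of 14 genes in neutrophils and 8 of 14 in monocytes, where 3 were higher (15.5% of all genes there were higher). Cebpd in monocytes was at 261 and 246 scaled CPM against 100.9 and 99.7 (-1.34 ± 0.05). Neutrophil Il10ra and Il10rb were lower by -0.80 ± 0.05 and -0.78 ± 0.04. Neutrophil Zc3h12a was at 425 and 425 scaled CPM against 216 and 209, also called lower.

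In Xist-only cells 10.3% of all genes were called lower in neutrophils, 4.22% in monocytes and 8.28% in alveolar macrophages. Feedback inhibitors were lower for 8 of 10 genes in neutrophils, 1 of 10 in monocytes and 3 of 10 in alveolar macrophages, and activators for 9 of 14, 4 of 14 and 1 of 14. Monocyte Socs3, at -0.70 ± 0.05 over all cells, was at -0.03 (adjusted p = 0.857), while monocyte Cebpd was still called lower at -1.01 (adjusted p = 0.000804). Without TMM, 7 of 10 feedback inhibitors were lower in neutrophils, but 7 of 14 activators and 7 of 11 JAKs and STATs were called higher there. The median of all neutrophil genes was then 0.456, and the share of all genes called was not counted, so these counts cannot be set against it.

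The genes whose pattern was most like each member were found by Pearson correlation of log2 levels over 44 means of cell type by group. These points share libraries and treatment, so the values are descriptions. Il12b was closest to Apol7c (r = 0.97), Timd4 and Ehf. Ebi3 was closest to Lrrc25 (0.95), Wfdc17 and Ptafr, Il27 to Ube2f (0.89), Fcgr1 and Adora2b, and Osm to Mmp8 (0.87), Lilr4b and Pim1. Il10 was closest to Eif1 (0.85), Orm1 and Batf, Il6 to Sphk1 (0.85), Car13 and Ptx3, and Il23a to Tarm1 (0.79), Mrgpra2b and Il1bos. Il12a reached 0.75 with Fcrl5, a B cell gene, and Lif 0.68 with Ripk1, the lowest of the 9.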

How the data were processed

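Single-cell RNA-seq libraries were analysed from UMI counts per gene and cell, deposited by the authors as unnormalized whole numbers and made with Cell Ranger 6.1.0, per the file headers. The build mm10, Seurat 4.1.0 and R 4.1.3 are named in the submitters' processing notes. Cells with at least 200 genes and at most 10% mitochondrial UMIs were kept, 61736 of 64428. The highest-scoring cells by scrublet, at 0.8% per 1000 cells, were removed as doublets, which left 56563. With scanpy 1.11.5, cells were clustered on 1903 variable genes without the members, using 30 principal components, 20 neighbours and Leiden clustering at resolution 2, with a second split at 1. Clusters were named from 20 marker lists, which put 53033 cells in 15 cell types. UMIs were summed per library and cell type, and the 11 types that had 30 cells or more in each of the libraries went into edgeR 4.0.16 (quasi-likelihood, TMM, filterByExpr, 1 coefficient per group, 2 residual degrees of freedom), with Benjamini-Hochberg adjustment over all genes within a cell type and comparison. The analysis was tested on simulated data. Floors use 3 UMIs, intervals are 95% and exact, and both cover counting error only. For shares, cells were thinned to 2000 UMIs and shallower cells left out. Likeness used log2 of the level plus 1.

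All members were named in every type described, with up to 4 genes of smallest p per list and 3 most alike genes per member. Members, lists and tests were chosen with earlier results of these data known. Alternatives were plain library-size scaling, DESeq2 1.42.0, no filter, doublets kept, each cell named on its own, each library left out, the LPS libraries alone and a replicate block. Restriction to Xist-only cells was added after the data were seen.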

Additional observations from a re-analysis of the deposited data

Results flagged for a closer look

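In 8 cases the LPS response of a member differed between the genotypes by edgeR's test of the difference itself, Nos1-/- minus wild type on the log2 scale. In alveolar macrophages this was -2.83 ± 0.41 (SE, adjusted p = 0.000626) for Ebi3, -2.53 ± 0.51 (adjusted p = 0.00535) for Lif and -1.33 ± 0.12 (adjusted p = 2.22e-05) for Osm. In neutrophils it was -2.22 ± 0.15 (adjusted p = 1.14e-06) for Osm, -1.25 ± 0.21 (adjusted p = 0.00253) for Ebi3 and -10.6 ± 2.5 (adjusted p = 0.0223) for Il6. The Il6 value is a fitted number with no floor, since the wild type vehicle library had 0 Il6 UMIs in neutrophils and the Nos1-/- vehicle library 18. In dendritic cells it was -1.57 ± 0.34 (adjusted p = 0.0337) for Ebi3, and in B cells 1.05 ± 0.21 (adjusted p = 0.000704) for Il12a. Each rests on 1 vehicle library per genotype, and genotype and sex marks cannot be told apart there.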

How the results depend on the processing

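The 52 members called higher with LPS numbered 48 with plain scaling, 43 with DESeq2 and 46 to 53 with any LPS library left out, 42 without the wild type vehicle library and 47 without the Nos1-/- one. Of the 52 calls, 39 were kept under every alternative. The 29 lower calls of Nos1-/- against wild type LPS numbered 14 with DESeq2 and 15 in Xist-only cells (fewer cells and 52 tests), 25 with plain scaling and 20 to 28 with any LPS library left out, and 7 of the 30 calls in either direction were kept under every alternative: Il10, Il27 and Ebi3 in neutrophils, Il27 and Il12a in classical monocytes, Il27 in alveolar macrophages and Il12a in B cells. With a replicate block 30 were lower and 28 of the 30 calls were kept. Deviations of same-numbered LPS libraries from their group means correlated at -0.0763 to 0.113 over 11 cell types. Such values cannot show whether a number marks a shared day or animal, which the labels do not state. Of the 8 differences in LPS response, 4 were kept under each of the 9 alternatives run. Neutrophil Ebi3 was lost with plain scaling, alveolar macrophage Lif with DESeq2, dendritic Ebi3 with doublets kept or without the second Nos1-/- LPS library, and neutrophil Il6 with DESeq2, doublets kept or each cell named on its own. Leaving out a vehicle library or keeping only Xist cells leaves no such difference to fit.

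Directions turned as follows, and the cause was not tested. With plain scaling neutrophil Il23a under LPS was -0.27 (adjusted p = 0.525) and neutrophil Osm between genotypes 0.11 (adjusted p = 0.0353). Neutrophil Il6 under LPS was -2.34 (adjusted p = 0.00373) without the wild type vehicle library and -2.96 (adjusted p = 0.0306) in Xist-only cells, where dendritic Osm under LPS was -0.12 (adjusted p = 0.931). Between genotypes, monocyte Osm was 0.27 with doublets kept (adjusted p = 0.0379) and dendritic Il12b -0.997 to 1.93 with any LPS library left out, the latter without the first wild type LPS library. Xist-only cells gave 0.74 for Il23a and 0.26 for Osm in alveolar macrophages, and 0.14 for Ebi3 in nonclassical monocytes. Depth limits most the 42 vehicle neutrophils of wild type with 2000 UMIs.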
